A study of Homo sapiens with 4 samples.

Results

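The metallothionein genes and MTF1, the transcription factor that controls them, were followed in RNA-seq of cells with and without ZCCHC4. Genes were taken from the expression table by symbol, namely MT1 followed by 1 letter, MT2A, MT3, MT4 and MTF1. This gave 6 genes of the 16658 in the table, the metallothioneins MT2A, MT1X, MT1E, MT1F and MT1G together with MTF1. RefSeq holds 12 metallothionein symbols of this form, and the other 7 were not analysed here. The family was chosen on its difference in FPKM between ZCCHC4 KO1 and WT cells, so the values of the 6 genes in that comparison are given as a description, without a test.

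The 4 libraries were made from total RNA of untreated cells labelled HepG2, a human liver cancer line, grown in DMEM with serum. WT and ZCCHC4 KO1 cells gave 2 each. ZCCHC4 KO1 is 1 of several knockout lines made by CRISPR/Cas9, and the other lines were not analysed here, so the effect of the knockout and the state of this line cannot be told apart. The labels do not say that the libraries of a group came from separate cultures, and p-values then measure only the spread between these libraries. ZCCHC4 itself, an RNA methyltransferase, was at 7.22 and 5.44 FPKM in WT and at 1.08 and 2.29 FPKM in ZCCHC4 KO1, with both knockout libraries below both WT libraries. The log2 difference of ZCCHC4 was -1.48 (SE 0.287, adjusted p = 0.0448 from limma), and the adjusted p was 0.0514 without ZCCHC4 KO1 replicate 1, 0.115 with no filter on low values and 0.0551 with 0.1 in place of 1 added before the logarithm. FPKM is a fragment number scaled by transcript length and by the mapped fragments of the library. Depth is unknown, since FPKM values keep no read totals.

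The markers of hepatocytes were nearly absent from the cells labelled HepG2. Of 16 hepatocyte markers 9 were listed, and 0 of these were at 1 FPKM or more in WT replicates 1 and 2. Their summed level was between 0.55 and 0.87 FPKM per library. AFP, an oncofetal liver protein, did not exceed 0.05 FPKM in any library, and ALB was not analysed here, whereas KRT7, a simple epithelial keratin, was between 2026 and 3078 FPKM in all 4 libraries. Of the other epithelial and biliary markers, KRT8 was between 1923 and 3602 FPKM and KRT18 between 1294 and 2580 FPKM. KRT19 was at 0.11 FPKM or less, SOX9 at 0.1 FPKM or less and EPCAM at 0.03 FPKM or less. A trend with transcript GC content separated the replicates within each group, in opposite directions. Across 10559 genes, which are not independent replicates, GC content had a Spearman correlation of 0.715 with replicate 2 minus replicate 1 in the WT group and of -0.776 in the knockout group.

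Metallothioneins are small proteins rich in cysteine that bind zinc and copper, and also cadmium and other toxic metals, through their thiol groups. They buffer free zinc in the cell and are abundant in liver and kidney. MTF1 has zinc fingers that sense zinc. When zinc rises, MTF1 enters the nucleus and binds metal response elements, short motifs that stand in several copies before metallothionein genes. Glucocorticoids, cytokines and oxidants induce the same genes by other routes.

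The metallothionein genes lie side by side on chromosome 16 of GRCh38, and the 5 listed ones span 75613 bases from 56608584 to 56684196. In this order MT2A runs from 56608584 to 56609497, MT1E from 56625781 to 56627112, MT1F from 56657959 to 56659303, MT1G from 56666730 to 56668065 and MT1X from 56682470 to 56684196. MTF1 lies apart, on chromosome 1 from 37809574 to 37859592.

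The 250 bases before the start of the gene are shown for MT2A, MT1X and MTF1. These are the members with an entry among the RefSeq promoters of GRCh38.p14. In metallothionein genes such stretches hold the sites at which MTF1 is known to act, and the MTF1 stretch is shown beside them. MT1E, MT1F and MT1G had no entry. Capitals mark matches to the metal response element, searched as TGCACNC and TGCGCNC on both strands, and no matches overlapped. The stretches lie at chr16:56608334-56608583 on the plus strand for MT2A, at chr16:56682220-56682469 on the plus strand for MT1X and at chr1:37859593-37859842 on the minus strand for MTF1, each written 5′ to 3′ on the strand of its gene.
MT2A: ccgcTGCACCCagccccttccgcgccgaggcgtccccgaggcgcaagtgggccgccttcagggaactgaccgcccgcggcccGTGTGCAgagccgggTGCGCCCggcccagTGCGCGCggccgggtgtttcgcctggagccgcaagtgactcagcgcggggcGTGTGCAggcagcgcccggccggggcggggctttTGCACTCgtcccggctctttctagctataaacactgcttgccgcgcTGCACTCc
MT1X: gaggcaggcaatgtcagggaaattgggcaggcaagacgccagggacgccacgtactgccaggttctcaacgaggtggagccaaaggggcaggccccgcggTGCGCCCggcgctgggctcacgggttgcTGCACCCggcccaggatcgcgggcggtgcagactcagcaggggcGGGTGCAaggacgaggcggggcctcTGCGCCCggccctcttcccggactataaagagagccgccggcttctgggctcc
MTF1: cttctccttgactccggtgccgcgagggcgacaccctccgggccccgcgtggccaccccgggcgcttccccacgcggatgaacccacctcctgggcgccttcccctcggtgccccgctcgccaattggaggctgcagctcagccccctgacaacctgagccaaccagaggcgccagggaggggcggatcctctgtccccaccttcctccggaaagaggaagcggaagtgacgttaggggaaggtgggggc

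MT2A had 7 matches and MT1X had 4, while the MTF1 stretch had 0. Among 35116 RefSeq stretches of the same length, 24.8% held at least 1 match, 0.208% held at least 4 and 0.0228% held at least 7. Another 3 family members outside the table also had entries, and MT1H had 8 matches, MT1B 3 and MT4 3. A match lay at almost the same place in 4 of the 5 metallothionein stretches, from base -54 to -48 in MT2A and from base -53 to -47 in MT1X, MT1H and MT1B, counted back from -1 just before the start. The motif TATAAA on the strand of the gene followed in MT2A, from -29 to -24, and in MT1X, from -30 to -25, and 6.8% of all stretches held it. MT2A also held 1 copy of TGACTCA, the motif of AP-1 factors, which 4.2% of the stretches held on either strand. The last 2 motifs were chosen after the sequences had been seen. A match is a description of letters and does not show that a factor was bound.

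MT2A was the main metallothionein in every library and was lower in the knockout libraries. Its FPKM was 768 and 761 in WT, against 94.3 and 92.8 in ZCCHC4 KO1. The 2 groups were far apart and the libraries within each were close, with means of 765 ± 4.92 and 93.5 ± 1.03 (SD, n = 2 each). The WT mean was 8.18-fold higher, a difference of -3.02 in log2(FPKM + 1) for ZCCHC4 KO1 minus WT. By FPKM, MT2A ranked 109 and 119 of all genes in WT and 1003 and 964 in ZCCHC4 KO1. Of 158 genes with a WT mean of at least 500 FPKM, MT2A was 1 of 3 that were at least 2-fold lower in the knockout. The others were TMSB4X, which encodes an actin-binding peptide, and TM4SF1, which encodes a membrane protein, both noticed after their values were seen.

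MT1X, the next in level, encodes a further zinc-binding isoform. Its FPKM was 59.3 and 54.15 in WT, against 17.8 and 17.65 in ZCCHC4 KO1, with means of 56.7 ± 3.66 and 17.7 ± 0.120 (SD, n = 2 each). The groups did not overlap, and the WT mean was 3.20-fold higher, a difference of -1.62 in log2(FPKM + 1). MT1X was thus reduced less than MT2A in these libraries, as the ratio of the 2 genes shows. MT2A was 12.9 and 14.1 times the FPKM of MT1X in WT, but 5.29 and 5.26 times in ZCCHC4 KO1.

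MT1E and MT1F were low in WT and near 0 in the knockout. MT1E was at 4.14 and 4.42 FPKM in WT, at 0.1 FPKM in ZCCHC4 KO1 replicate 1 and listed at 0 in replicate 2. MT1F was at 2.61 and 4.64 FPKM in WT and at 0.12 and 0.13 FPKM in ZCCHC4 KO1. The WT libraries of MT1F were further apart relative to their mean than those of the other members that passed the filter on low values, and both lay above the knockout values. The differences in log2(FPKM + 1) were -2.33 for MT1E and -2.0 for MT1F, and they depend on the constant added before the logarithm, since with 0.1 in place of 1 they were -4.95 and -3.99.

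MT1G did not follow the others. It was listed at 0 in both WT libraries and at 0.15 and 0.31 FPKM in ZCCHC4 KO1. All 4 values were below the FPKM of 1 that a gene had to reach in 2 libraries to be compared, so 4 of the 5 listed metallothioneins passed this filter. For each of the 4, both knockout libraries were below both WT libraries, a pattern that 28.5% of all 10726 genes compared also showed, while 23.1% showed the opposite one. This order is a description only, since the family was chosen on this comparison. MT1E and MT1F passed the filter only through their WT libraries, so their order was fixed in advance.

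As a family, the 5 genes summed to 834 and 825 FPKM in WT and to 112 and 111 FPKM in ZCCHC4 KO1. On the log2 scale the knockout sum was lower by a ratio of -2.89, with an SD of 0.0121 in WT and 0.0143 in ZCCHC4 KO1. The sum was 0.163% and 0.153% of the FPKM of all genes in WT and 0.0199% and 0.0213% in ZCCHC4 KO1. Its makeup shifted toward MT1X. MT2A made up 92.1% and 92.3% of the sum in WT and 83.8% and 83.7% in ZCCHC4 KO1, while MT1X made up 7.11% and 6.57% in WT, against 15.8% and 15.9% in ZCCHC4 KO1. The copies are similar in sequence and the authors' division of reads among them is an estimate, so the values of single members are less certain than their sum. In RNA from a whole culture, fewer cells with a transcript and less transcript per cell cannot be told apart.

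**Figure D1:**
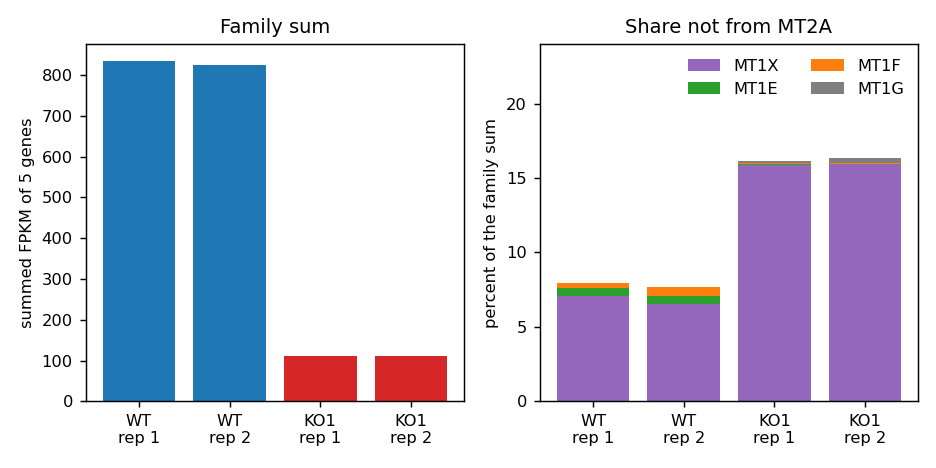
Summed FPKM of the 5 listed metallothionein genes in each library (left, y axis from 0) and the percent of that sum from genes other than MT2A (right). The sum is 834 and 825 in WT, against 112 and 111 in ZCCHC4 KO1, and MT1X makes up 7.11% and 6.57% in WT, against 15.8% and 15.9% in ZCCHC4 KO1.

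The level of MTF1 mRNA overlapped between the groups. MTF1 was at 2.85 and 2.44 FPKM in WT and at 2 and 3.15 FPKM in ZCCHC4 KO1, with means of 2.64 ± 0.290 and 2.57 ± 0.813 (SD, n = 2 each). The 2 knockout libraries were the lowest and the highest of the 4. The difference in log2(FPKM + 1) was -0.04 and lay between -0.28 and 0.19 when each library was left out in turn, with the lowest value without ZCCHC4 KO1 replicate 2 and the highest without ZCCHC4 KO1 replicate 1. The protein and its place in the cell were not measured in these data.

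The metallothionein transcripts share a short length. The median over annotated protein-coding transcripts was 491 bases for MT2A, 471 for MT1X, 704 for MT1E, 420.5 for MT1F and 406 for MT1G, against a median of 1880 over the genes compared. Of those genes, 0.729% were shorter than MT2A, 0.578% shorter than MT1X and 9.20% shorter than MT1E, the longest of the 5. MTF1, at 7937 bases, was longer than 97.8% of them. The GC content was between 51.8% and 55.7% for the metallothioneins and 46.6% for MTF1, against a median of 49.9%. With the trend on GC content removed from each library, the difference in log2(FPKM + 1) was -3.07 for MT2A and -1.61 for MT1X.

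Genes beside the cluster differed in both directions. Within 1 megabase on either side, 20 other genes were compared with limma on log2(FPKM + 1), and 11 were lower and 9 higher in ZCCHC4 KO1, with a median of -0.14. NUP93, which encodes a nuclear pore protein and lies 45.9 kb beyond MT1X, was at 50.7 and 56.05 FPKM in WT and at 65.6 and 59.3 FPKM in ZCCHC4 KO1 (log2 difference 0.22, 95% interval -0.11 to 0.56, adjusted p = 0.404 from limma). BBS2, of the ciliary BBSome complex, lies 88.6 kb before MT2A and was at 8.85 and 8 FPKM in WT and at 5.12 and 6.26 FPKM in ZCCHC4 KO1 (log2 difference -0.50, 95% interval -0.99 to -0.01, adjusted p = 0.210 from limma). At an adjusted p under 0.05, 3 of the 20 were lower and 1 was higher, where 4.48% of all genes compared (480) were lower and 1.5% (161) higher. With quantile normalization this split was 741 lower and 481 higher. ADGRG1, an adhesion receptor gene 936 kb away, was at 10.1 and 9.93 FPKM in WT and at 1.83 and 2.75 FPKM in ZCCHC4 KO1, a log2 difference of -1.76 (adjusted p = 0.0151 from limma). HERPUD1, which acts in degradation at the endoplasmic reticulum, fell by 0.86 on this scale, and CPNE2, a copine gene, fell by 0.85, while SLC12A3, a sodium chloride cotransporter gene, rose by 0.72. The adjusted p of these 3 was 0.0281, 0.0449 and 0.0438 from limma. Each of these 3 calls was lost without WT replicate 1 and without WT replicate 2, with adjusted p between 0.205 and 0.430, and the calls of CPNE2 and SLC12A3 also without ZCCHC4 KO1 replicate 1, at 0.0549 and 0.0643. With no filter on FPKM the adjusted p from limma was 0.0522 for ADGRG1, 0.0730 for CPNE2 and 0.0667 for SLC12A3, and with eBayes without a trend it was 0.0657 for SLC12A3.

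**Figure D2:**
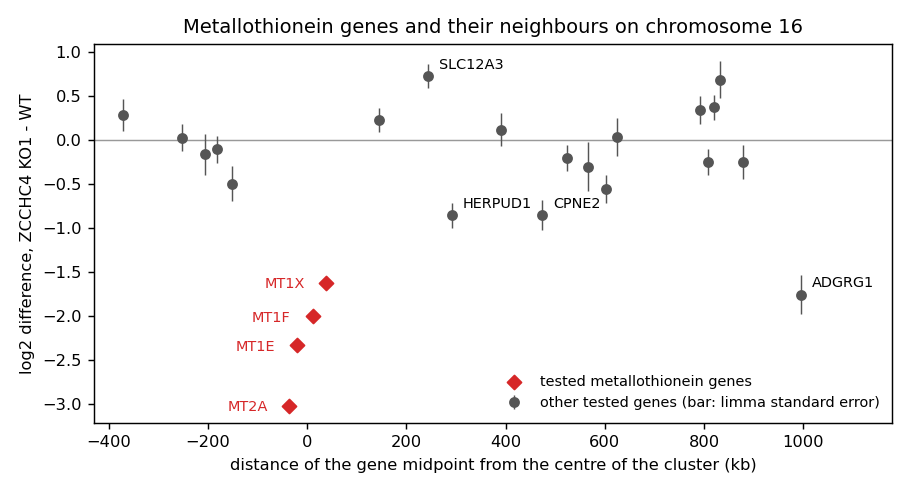
Difference in log2(FPKM + 1) between ZCCHC4 KO1 and WT (y axis) against the distance of the gene midpoint from the centre of the cluster in kb (x axis). The 4 metallothionein genes compared (red diamonds) lie between -3.02 and -1.62, and the 20 neighbours (grey, bars are limma standard errors) between -1.76 and 0.72, with those past an adjusted p of 0.05 named.

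Genes that move zinc and copper, targets of MTF1 outside the family, and genes of the signals that induce metallothioneins were compared next, in 7 lists of 83 genes in all. Of these, 64 passed the filter on FPKM. At an adjusted p under 0.05 from limma, 7 of the 64 were lower (10.9%) and 2 were higher (3.12%), against 4.48% and 1.5% of all genes compared. The lists were chosen with earlier results of these data known, so these shares are a description. The median log2 difference of the 64 was -0.05, and that of all genes compared was -0.03. The study used stricter thresholds, an FDR under 0.001 and a fold change of at least 2. At these, none of the 64 was called in either direction with limma. Only 6 lower and 2 higher of all 10726 genes compared were called with limma, so a count of 0 says little about the lists. The study itself reported many more genes in both directions at its thresholds, with a test that it does not name. At an unadjusted p under 0.05, 15 of the 64 were lower and 5 higher. Of all genes compared, 13.9% were lower and 8.96% higher at that unadjusted p. With no filter on FPKM the calls of SLC39A14, SOD1, TSC22D3 and SAA1 were lost, at an adjusted p from limma of 0.0667, 0.0578, 0.0689 and 0.0747.

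Zinc importers included 2 of 10 genes that fell and none that rose (median log2 difference -0.18), with 3 lower and 0 higher at an unadjusted p under 0.05. SLC39A7, which releases zinc from the endoplasmic reticulum and Golgi, was at 78.5 and 84.1 FPKM in WT and at 40.6 and 37.4 FPKM in ZCCHC4 KO1. Its log2 difference was -1.04 (SE 0.131, adjusted p = 0.0151 from limma). SLC39A14, which takes up zinc, iron and manganese at the cell surface, was at 65.1 and 60.2 FPKM in WT and at 24.8 and 32.8 FPKM in ZCCHC4 KO1. Its log2 difference was -1.11 (SE 0.174, adjusted p = 0.0262 from limma). For both genes each knockout library was below each WT library, as for 28.5% of all genes compared. Without each library in turn the log2 difference lay between -1.10 and -0.98 for SLC39A7 and between -1.30 and -0.91 for SLC39A14. With no filter on FPKM the call of SLC39A14 was lost (adjusted p = 0.0667 from limma).

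Of 7 zinc exporters none passed the adjusted p of 0.05 with limma (median log2 difference -0.06), and 1 was lower at an unadjusted p under 0.05. That gene was SLC30A5, which loads zinc into the secretory pathway, at 23.0 and 21.2 FPKM in WT and at 13.2 and 15.6 FPKM in ZCCHC4 KO1 (adjusted p = 0.102 from limma). Its adjusted p from limma was 0.0260 with the GC trend removed and 0.0370 without ZCCHC4 KO1 replicate 2. SLC30A7, of the Golgi, had a log2 difference of 0.33 (95% interval -0.23 to 0.89, adjusted p = 0.464 from limma). SLC30A1, the exporter at the cell surface and the best known target of MTF1 beside the metallothioneins, was singled out after its values had been seen. It was at 15.4 and 10.9 FPKM in WT and at 10.7 and 14.9 FPKM in ZCCHC4 KO1, so that the groups overlapped, and its log2 difference was -0.03 (95% interval -0.65 to 0.58, adjusted p = 0.959 from limma).

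Of 8 genes compared as targets of MTF1 outside the family, SLC30A1 among them, none passed the adjusted p of 0.05 with limma (median log2 difference -0.11), and at an unadjusted p under 0.05 1 was lower and 1 higher. The lower one was CSRP1, which encodes a LIM domain protein, with a log2 difference of -0.60 (95% interval -1.0 to -0.20, adjusted p = 0.0974 from limma). The higher one was TXNRD2, the mitochondrial thioredoxin reductase, with a log2 difference of 0.76 (95% interval 0.20 to 1.31, adjusted p = 0.119 from limma). Both passed under some other settings. The adjusted p of CSRP1 from limma was 0.00764 with quantile normalization, 0.00277 with the GC trend removed and 0.0394 without ZCCHC4 KO1 replicate 1. That of TXNRD2 was 0.0465 with median-ratio scaling, 0.0461 with quantile normalization, 0.0155 with the GC trend removed and 0.00671 without ZCCHC4 KO1 replicate 2.

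Copper handling held 1 of 11 genes that fell and none that rose (median log2 difference 0.09), with 2 lower and 0 higher at an unadjusted p under 0.05. SOD1, the copper and zinc superoxide dismutase of the cytosol, was at 252 and 272 FPKM in WT and at 156 and 151 FPKM in ZCCHC4 KO1. Its log2 difference was -0.77 (SE 0.126, adjusted p = 0.0288 from limma). This call was lost with median-ratio scaling (adjusted p = 0.0940 from limma), with eBayes without a trend (0.0554), without WT replicate 1 (0.158) and without WT replicate 2 (0.251).

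In the list of responses to metals and oxidants, 1 of 13 genes rose and none fell (median log2 difference 0.21), with 2 higher and 2 lower at an unadjusted p under 0.05. HMOX1, the heme oxygenase that cadmium and oxidants induce, was at 9.41 and 11.5 FPKM in WT and at 34.5 and 31.1 FPKM in ZCCHC4 KO1. It was 3.13-fold higher in the knockout, a log2 difference of 1.56 (SE 0.172, adjusted p = 0.0113 from limma). HMOX1 thus differed in the direction opposite to the metallothioneins. Its log2 difference lay between 1.43 and 1.70 without each library in turn. At an unadjusted p under 0.05, HSF1 was also higher, by 0.43 (adjusted p = 0.186 from limma). The 2 lower genes were HSPA1B and HSPA1A, at -0.47 and -0.43 (adjusted p = 0.132 and 0.188 from limma), the direction of the metallothioneins. After GC removal the adjusted p of these 2 from limma was 0.0407 and 0.0664, and after quantile normalization 0.0173 and 0.0502.

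Of 9 genes of the glucocorticoid response, 3 fell and none rose (median log2 difference -0.42), with 4 lower and 1 higher at an unadjusted p under 0.05. SGK1, a kinase that controls ion transport, was at 81.8 and 76.3 FPKM in WT and at 14.4 and 20.3 FPKM in ZCCHC4 KO1. Its log2 difference was -2.14 (SE 0.191, adjusted p = 0.00693 from limma). DUSP1, a phosphatase of MAP kinases, was at 78.5 and 88.7 FPKM in WT and at 37.9 and 33.8 FPKM in ZCCHC4 KO1. Its log2 difference was -1.20 (SE 0.142, adjusted p = 0.0129 from limma). TSC22D3, a leucine zipper gene induced by glucocorticoids, had a log2 difference of -0.88 (adjusted p = 0.0386 from limma), a call lost without WT replicate 1 (0.202) and without WT replicate 2 (0.276). SGK1 and DUSP1 answer to serum and growth signals as well as to glucocorticoids. At an unadjusted p under 0.05, PER1 was also lower and NFKBIA higher, with log2 differences of -0.47 and 0.45 (adjusted p = 0.216 and 0.140 from limma). With the GC trend removed, their adjusted p from limma was 0.0417 and 0.0196. FKBP5, which glucocorticoids also induce and which was chosen after its values had been seen, had a log2 difference of -0.06 (adjusted p = 0.907 from limma).

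Of 9 genes of IL6 and STAT3 signalling, 1 fell and 1 rose (median log2 difference 0.03), with 2 lower and 1 higher at an unadjusted p under 0.05. SOCS3, the feedback inhibitor that STAT3 induces, was at 13.3 and 15.7 FPKM in WT and at 3.71 and 3.30 FPKM in ZCCHC4 KO1. Its log2 difference was -1.78 (SE 0.194, adjusted p = 0.0112 from limma). SAA1, an acute phase gene, was at 1.34 and 1.29 FPKM in WT and at 4.12 and 5.35 FPKM in ZCCHC4 KO1, with a log2 difference of 1.30 (adjusted p = 0.0257 from limma). The call of SAA1 was lost without WT replicate 1 (0.0567), and its reads may be shared with the similar SAA2.

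**Figure D3:**
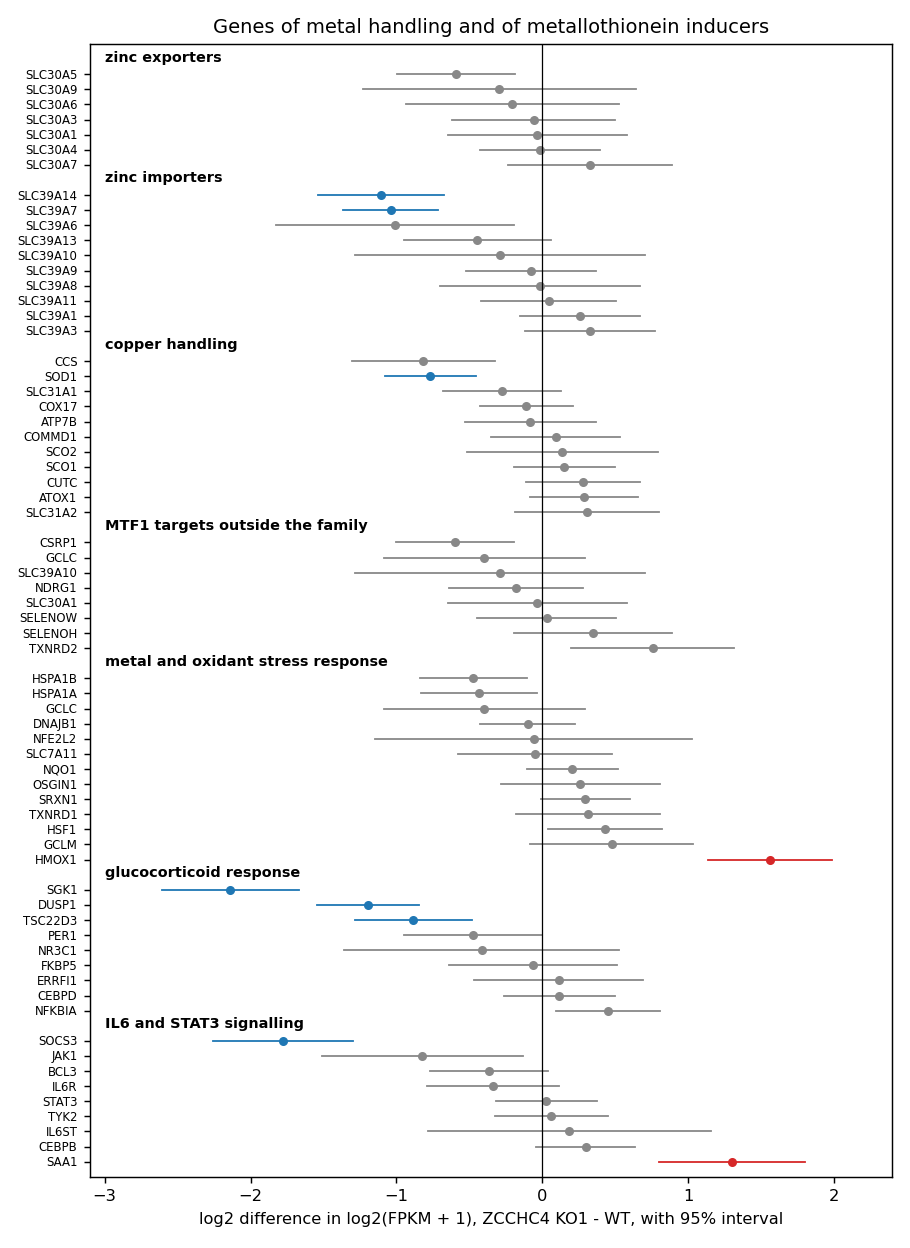
Difference in log2(FPKM + 1) between ZCCHC4 KO1 and WT with its 95% interval from limma (x axis) for the genes compared in 7 lists (y axis), with blue for lower and red for higher at an adjusted p under 0.05 and grey for the rest. SGK1 at -2.14 and SOCS3 at -1.78 lie lowest and HMOX1 at 1.56 lies highest, while SLC30A1 lies at -0.03.

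The genes most like MT2A across the 4 libraries were sought outside the listed metallothioneins and MTF1, which were left out of the search. Likeness was the root mean square distance between profiles of log2(FPKM + 1), each centred on its own mean. The nearest were TNS4, a focal adhesion gene, at a distance of 0.0549, ACKR3, an atypical chemokine receptor gene, at 0.0963, SERPINB5, a serpin gene, at 0.118, WFDC1 at 0.185 and MAPK4 at 0.199. TNS4 was at 9.53 and 9.89 FPKM in WT and at 0.28 and 0.39 FPKM in ZCCHC4 KO1, a log2 difference of -3.01 beside -3.02 for MT2A. The match depends on the constant added before the logarithm, since the WT mean was 29.0-fold higher for TNS4 and 8.18-fold higher for MT2A. With 0.1 in place of 1 the difference was -4.51 for TNS4 and -3.03 for MT2A. It lay between -5.60 and -3.69 for the 5 genes. Among all genes compared, 15 had a larger fall than MT2A and 101 a larger fall than MT1X on this scale. The 5 genes were chosen for their pattern, so no test is given. TNS4, ACKR3, WFDC1 and MAPK4 passed the filter on FPKM only through their WT libraries, so their order was fixed in advance.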

How the data were processed

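RNA-seq was done on 4 libraries, 2 per genotype. The authors aligned reads to GRCh38 with Bowtie2 and deposited FPKM values estimated with RSEM, to 2 decimals. Versions, gene annotation and read filters are not given in the sources used here. The sources differ on the sequencer, BGISEQ-500 or Illumina HiSeq. FPKM of short transcripts such as these depends on the fragment length assumed. All 4 value columns were mapped to samples by title, and 0 were left over.

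Entrez identifiers were matched to RefSeq (GRCh38.p14), which named 16384 of 16658 genes. Genes with FPKM of at least 1 in at least 2 libraries, 10726 in all, were analysed with limma 3.58.1 in R 4.3.3 on the log2(FPKM + 1) scale (lmFit, eBayes with a trend, Benjamini-Hochberg adjustment over all of them, two-sided). The fit was tested on simulated data. A count model was not used, since FPKM are not counts, and the precision rests on 2 libraries per group. GENCODE v44 protein-coding transcripts gave lengths and GC content.

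The members and lists were chosen with earlier results of these data known. Named are the members, ZCCHC4, 4 identity markers where listed, up to 4 genes of each list past an adjusted p of 0.05 or otherwise the 2 with the smallest p, the nearest and the called neighbours of the cluster, and the 5 genes most like MT2A. Some further list genes and markers were named after their values had been seen. Other settings tried were no filter, a minimum FPKM of 5, a pseudocount of 0.1, median-ratio scaling, quantile normalization, removal of the GC trend (natural spline, 4 degrees of freedom), eBayes without a trend, a replicate block, other thresholds, and leaving out each library.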

Additional observations from a re-analysis of the deposited data

How the results depend on the processing

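The log2 ratio of the metallothionein sums was -2.82 with median-ratio scaling, -2.88 with quantile normalization, -2.94 with the GC trend removed and between -2.90 and -2.88 without each library in turn. MT2A, MT1X, MT1E and MT1F were lower and MT1G higher under every alternative run, while MTF1 changed sign with median-ratio scaling (0.01), quantile normalization (0.05) and GC removal (0.05), and also when replicate 1 of WT (0.04) or of ZCCHC4 KO1 (0.19) was left out.

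The main settings gave 7 lower and 2 higher genes of the 7 lists. There were 4 lower and 2 higher with no filter, where SAA1 lost its call, so these 2 higher genes were not the same pair. At a minimum FPKM of 5 there were 7 lower and 1 higher. There were 15 lower and 5 higher with the GC trend removed, and 0 and 0 with limma at the thresholds of the study. Without one library in turn, 5 to 10 were lower and 1 to 6 higher, with 1 higher without WT replicate 1 and 6 higher without ZCCHC4 KO1 replicate 2. A group left with 1 library was assumed to vary like the other. For the counts and the sums alike, the cause was not tested. Over all genes, 480 lower and 161 higher calls became 1338 and 715 with the GC trend removed, 262 and 82 with no filter, 741 and 481 after quantile normalization, 660 and 345 after scaling by median ratios, 6 and 2 at the thresholds of the study, 349 and 100 with a fold of at least 2 added, and 273 to 1037 and 97 to 558 without one library in turn, with 1037 and 558 without ZCCHC4 KO1 replicate 2 and 273 and 97 without WT replicate 1.

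The groups share only replicate numbers. Differences between replicates correlated at -0.787 between the groups across genes. With the replicate block 6 genes were lower and 2 higher, and SOD1, TSC22D3, HERPUD1, CPNE2 and SLC12A3 lost their calls (adjusted p = 0.103, 0.112, 0.0930, 0.203 and 0.186 from limma), SLC39A6 gained one (0.0276, lower), and over all genes 355 were lower and 107 higher. With the numbers crossed, chosen after seeing the data, 23 were lower and 16 higher, beside 2986 and 2309 of all 10726 genes compared. With 2 libraries per group and no known depth, small differences of genes with low FPKM could not be resolved.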
